A study of Homo sapiens with 7 samples.

Results

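Densely tested regions are stretches of the human genome, taken by the study as candidate regulators, in which 8 or more mutations were each placed in a reporter construct, so that the effect of a mutation can be read along the region. They were taken as the regions with 8 or more entries in the authors' deposited table of mutant against wild-type sequence. This gave 22 of 376 regions and 212 of 1025 mutant constructs, with 8 to 14 mutants in a region. Of the 22 regions, which were 342 to 4999 bp long, 11 lay inside a protein-coding gene, 1 overlapped a gene end and 10 overlapped no protein-coding gene. Some of those 10 overlapped other annotated genes. These were TRB (nearest to PRSS58), LINC02733 (INCENP), MCPH1-AS1 (MCPH1), ZNF341-AS1 (CHMP4B) and LOC124900626 (SLC6A19). Each region is named here by the protein-coding gene it overlaps or lies nearest to, in hg38 coordinates, apart from the region in TRB. The name makes no claim on which gene is controlled.

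The study read the constructs in C4-2B, an established human prostate cancer cell line of the LNCaP lineage, with a lentiviral massively parallel reporter assay (lentiMPRA). There, transcripts carry a barcode for the sequence that drives them, and barcodes in RNA are counted relative to genomic DNA (gDNA) from cells collected 48 hours after transduction. The 3 kinds of construct compared are mutant sequence, its wild-type counterpart and a scrambled sequence, all in the same cells, with no treatment named, in 3 RNA and 3 gDNA libraries that the authors combined. The tables hold no expression values, so the cell line was not checked against marker genes, and 1 cell line limits what the values stand for.

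An enhancer or promoter holds short sequence motifs bound by transcription factors, and a change of single bases can weaken such a motif, strengthen it or make a new one. Mutating a regulatory sequence site by site is a common way to find these motifs, since sites within 1 motif tend to act alike. Gains can mark a lost repressor motif or a gained activator motif, and losses the opposite. No sequence is printed for these constructs, and mutated sites are given only as distances from the first tested site of their region.

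Estimates are read as natural-log odds ratios of RNA over gDNA, mutant over wild-type, and the value after ± is a standard error, the estimate divided by its z value. A fold is a fold of odds. A mutant is called higher or lower where the authors' adjusted p (Benjamini-Hochberg over the whole table) was under 0.05. The tables give no values per replicate and no reads or barcodes, so depth is unknown and the errors are those of the authors' model alone.

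Mutations in the densely tested regions were called in both directions, and every one of the 22 regions held at least 1 mutant called higher and 1 called lower in the authors' deposited table. That held for 13 regions with Bonferroni adjustment, for 16 with calls of at least 1.5-fold, and for 0 with z scaled by its spread, where 1 mutant was called in all. Without those changes, 129 of 212 mutants (60.8%) were called, 63 higher and 66 lower, and 83 were not called, in the authors' deposited table. Of all 1025 mutants in the authors' deposited table, a share of 56.6% was called, 29.5% higher and 27.1% lower, so the share in densely tested regions lay near the background. With such shares, a region of 8 to 14 mutants would be likely to hold calls in both directions wherever it lay. Calls in both directions are therefore not read as a trait of densely tested regions, and the same count was not made for other regions. The median size of a called estimate in the authors' deposited table was 0.49, or 1.63-fold, with quartiles of 0.30 and 0.73. In the other 354 regions that median was 0.55 in the authors' deposited table. Regions with exactly 8 mutants, just inside the rule, had 41 of 64 called, and those with 7, just outside it, had 20 of 35, in the authors' deposited table.

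The calls rest on the authors' errors. The z values of the whole mutant table had a robust SD of 3.92, a spread that real effects and error beyond the model would both widen. With z divided by it, 1 of the 212 mutants was called, at IL3RA, against a background of 0.195% (15 had an unadjusted p under 0.05). With Bonferroni adjustment 75 were called, against a background of 29.9%.

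Estimates varied widely within regions. The SD of the estimates within a region of the authors' deposited table ranged from 0.19 at EP300 to 1.73 at NRG1, with a median of 0.62 over regions. Region medians in the authors' deposited table had an SD of 0.19 and ran from -0.60 at C2 to 0.37 at KIAA1671, with 11 medians above 0 and 11 below. Within a region the estimates scattered 2.36 to 7.81 times as widely as their model errors would give, lowest at NUP85 and highest at MCPH1. These comparisons leave out 2 mutants, 1 at CHLSN and 1 in the T-cell receptor beta locus, with estimates beyond 10 in size and far larger errors, neither of them called.

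The size that was called depended on the error of the construct. The smallest called estimate of the authors' deposited table was 0.08 ± 0.02, or 1.08-fold, in the SLC6A19 region, where errors were as small as 0.02. The largest estimate not called, 0.60 ± 0.28 or 1.83-fold in the authors' deposited table, lay in the TDRD9 region. The median error was 0.10 in densely tested regions and 0.12 in the others, in the authors' deposited table. Of the 129 calls, 25 were under 0.25 in size in the authors' deposited table.

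Both kinds of substitution were called in both directions. Of 129 transitions 78 were called (60.5%), 41 higher and 37 lower, and of 75 transversions 48 (64%), 21 higher and 27 lower, in the authors' deposited table. Insertions and deletions were few, with 3 of 5 deletions and 0 of 3 insertions called in the authors' deposited table. Along the regions, 4 equal stretches held 39 of 65, 32 of 49, 37 of 64 and 21 of 34 called sites, in that order, in the authors' deposited table.

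Sites next to each other were compared by the difference of their estimates over the root of the summed squared errors, in a two-sided Wald test with Benjamini-Hochberg adjustment over 188 neighbouring pairs. Of these, 116 (61.7%) differed, and 119 had an unadjusted p under 0.05. In the other regions 266 of 451 neighbouring pairs (59%) differed by the same test. With errors multiplied by the robust SD of z, 0 of the 188 pairs differed by that Wald test (18 had an unadjusted p under 0.05). Shared wild-type reads and the spread between replicates are not in this error.

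The median difference between neighbours showed no steady order with distance, and a trend was not tested. Neighbours up to 10 bp apart differed by a median of 0.49 in the natural log of odds (35 pairs, 24 of which differed by the Wald test), neighbours 11 to 50 bp apart by 0.41 (87 pairs, 56 of which differed) and neighbours 51 to 100 bp apart by 0.30 (25 pairs, 14 of which differed). Those over 100 and up to 500 bp apart differed by a median of 0.37 (32 pairs, 16 of which differed by the Wald test), and the 9 pairs farther apart by 0.51. Where both neighbours within 100 bp were called, they went the same way in 26 of 54 pairs (48.1%, 95% Wilson interval 35.4 to 61.1%, for counting error only, with pairs of a region not independent). Beyond 100 bp it was 6 of 13. Taking all pairs of a region rather than neighbours, the same direction held in 62 of 113 called pairs up to 100 bp apart and in 103 of 229 farther apart. The highest share among the distance classes of all pairs was 61.4%, at 51 to 100 bp (27 of 44 called pairs).

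Some mutants on the same or adjacent bases differed in their estimates, given the authors' errors. Of 13 neighbouring pairs at most 2 bp apart, 8 differed by the Wald test, and of the 5 pairs exactly 1 bp apart, 4 differed. None of them differed with errors multiplied by the robust SD of z, where the smallest adjusted p of all neighbouring pairs in that test was 0.0675. The widest gap among the 13 pairs lay at IL3RA, where both mutations hit the same base and stood at -1.32 ± 0.08 and 0.14 ± 0.12 per the authors' deposited table, a difference of 1.46 ± 0.14 (adjusted p of the difference = 1.74e-22). The wild-type rows of the same names also lay apart, at 1.14 ± 0.08 and 0.52 ± 0.11 against scrambled, in the authors' deposited table. How much of the gap between these mutants lies in their wild-type comparators was not tested. In the EXOC2 region the mutants at 27 and 28 bp, on adjacent bases, differed by 1.13 ± 0.44, with the first called higher at 1.13 ± 0.19 and the second not called at 0.00 ± 0.40 in the authors' deposited table. In the INCENP region adjacent bases at 561 and 562 bp gave 0.14 ± 0.09 and -0.65 ± 0.12 per the authors' deposited table (adjusted p of the difference = 6.09e-07). Adjacent bases went the same way at DIP2C, where the mutants at 198 and 199 bp were both called lower, at -0.60 ± 0.12 and -0.31 ± 0.05 in the authors' deposited table. Their sizes still differed by the Wald test, by 0.29 ± 0.13 (adjusted p of the difference = 0.0429).

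Calls in opposite directions were about as common as calls in the same direction between near neighbours, and also between those over 100 bp apart (7 of 13 called pairs). Within 50 bp, 23 of the 42 neighbouring pairs with both called went opposite ways, in 14 regions. The estimates of these opposite pairs differed by 0.33 to 3.76 in the natural log of odds. Since opposite calls chose these pairs, the differences are a description and no test. The closest, at MCPH1, lay 4 bp apart, at -1.57 ± 0.11 and 0.87 ± 0.20 in the authors' deposited table, a difference of 2.44 ± 0.23. A pair 5 bp apart at ADAMTS2 stood at -0.37 ± 0.07 and 0.19 ± 0.04 per the authors' deposited table. Pairs 7 bp apart stood at 0.45 ± 0.10 and -0.21 ± 0.09 in the ZNF528 region and at -1.21 ± 0.25 and 2.55 ± 0.83 near DIO3, in the authors' deposited table. At C2, RNF41 and CHMP4B opposite pairs lay 10, 11 and 12 bp apart and differed by 1.60 ± 0.15, 2.74 ± 0.38 and 0.43 ± 0.10. Pairs at CHMP4B, 15 bp apart, and at ADAMTS2, 19 and 22 bp apart, differed by 0.69 ± 0.20, 0.58 ± 0.07 and 0.68 ± 0.07. A second CHMP4B pair, tied with the last at 22 bp, differed by 0.90 ± 0.16.

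For 11 of the 22 regions the authors' deposited table of wild-type against scrambled sequence held rows, 102 in all, of which 97 matched a mutant by name. Of these 102 rows, the authors' deposited table called 68 (66.7%), with 44 higher and 24 lower, against 62.3% called, 34.1% higher and 28.2% lower, over that whole table. In 9 of the 11 regions wild-type constructs were called in both directions in the authors' deposited table, the exceptions being MCPH1 and DIO3, with 6 of 6 and 2 of 8 called higher and 0 lower. Neighbouring wild-type constructs differed in 50 of 90 pairs (55.6%) by the Wald test over those pairs. Up to 10 bp apart, 5 of 14 wild-type neighbours differed. Where both wild-type neighbours were called, they went the same way in 22 of 34 pairs up to 100 bp apart and in 5 of 10 farther apart. A difference from the mutant neighbours in this share was not tested. From their names, the mutant and wild-type comparisons were taken to use the same wild-type constructs, which could not be checked. If they do, a wild-type value enters the 2 comparisons with opposite sign, and error in it would push the values of a site in opposite directions. The values of a site in both comparisons are therefore given side by side below and not correlated. Opposite signs at a site are not read as an effect of the mutation.

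Among regions at genes of immune and growth factor signalling, the one inside C2, which encodes a protease precursor of the complement cascade, had the lowest median of the 22 (chr6:31922725-31925687, within the gene at 31897783 to 31945672). Its 9 sites spanned 547 bp, and 7 were called lower, 1 higher and 1 neither in the authors' deposited table. Losses in the authors' deposited table ran from -0.48 ± 0.07 at the first site to -0.97 ± 0.11 at 471 bp, or 1.62- to 2.65-fold lower. The single gain at C2, 1.01 ± 0.10 or 2.75-fold higher at 236 bp in the authors' deposited table, lay between a loss of -0.59 ± 0.12 at 226 bp and one of -0.88 ± 0.18 at 294 bp. The C2 wild-type constructs at 294, 363, 446, 471 and 547 bp were called higher than scrambled, from 0.35 ± 0.09 to 0.86 ± 0.07, in the authors' deposited table. Those at 226 and 236 bp were called lower, at -0.18 ± 0.05 and -0.28 ± 0.08 per the authors' deposited table.

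The region 386 bp from IL3RA, the gene of the interleukin-3 receptor alpha chain, also held more losses than gains, 4 against 1 of 8 mutants in the authors' deposited table (chrX:1334602-1336399). Its gain stood at the first site, at 0.57 ± 0.12, in the authors' deposited table. The losses stood at -0.30 ± 0.10 at 144 bp, -0.38 ± 0.07 at 298 bp, -1.34 ± 0.19 at 570 bp and -1.32 ± 0.08 at 591 bp per the authors' deposited table. The last of these, 3.76-fold lower, was the single call of the 212 that held with z scaled by its spread. The sites at 307 and 451 bp, between the smaller and the larger losses, were not called. Wild-type constructs near IL3RA ran from -1.33 ± 0.11 at the first site to 1.14 ± 0.08 at 591 bp against scrambled, in the authors' deposited table. The second wild-type row at 591 bp stood at 0.52 ± 0.11 in the authors' deposited table, although both are named for the same site. It lay 0.62 ± 0.13 away from the first (adjusted p of the difference, two-sided Wald test over wild-type neighbours = 1.35e-05).

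NRG1 encodes a ligand of ERBB3 and ERBB4, and the region within it showed the widest spread, from -1.56 ± 0.34 at 336 bp to 4.13 ± 1.14 at 698 bp in the authors' deposited table (chr8:32258967-32261520). That gain came with the largest error of the region, and its wild-type construct stood at -3.75 ± 1.08 against scrambled in the authors' deposited table. Neighbours 47 bp apart, at 336 and 383 bp, were both lower, as called in the authors' deposited table, at -1.56 ± 0.34 and -0.64 ± 0.13, and both wild-type constructs there were called higher than scrambled.

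RNF41 encodes an E3 ubiquitin ligase that acts on the receptor ERBB3, and its region had 9 mutants, with 2 gains, 2 losses and 5 not called in the authors' deposited table (chr12:56203449-56204444). The gains stood at 0.41 ± 0.08 at the first site and 0.49 ± 0.15 at 289 bp, in the authors' deposited table. The losses were the consecutive sites at 88 and 278 bp, at -0.67 ± 0.08 and -2.25 ± 0.35 per the authors' deposited table, the latter 9.50-fold lower. Between the first site and 88 bp the uncalled estimates were 0.20 ± 0.10, -0.16 ± 0.08 and -0.18 ± 0.09 in the authors' deposited table, with a difference of 0.36 ± 0.13 between the first pair of them.

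The T-cell receptor beta locus TRB, where gene segments are joined in T cells, held a region with a block of gains and a block of losses (chr7:142455637-142457635, 197579 bp from PRSS58). Gains at 996, 1000 and 1025 bp stood at 1.71 ± 0.18, 0.20 ± 0.08 and 0.60 ± 0.23 per the authors' deposited table. The first of them was 5.52-fold, and its neighbour 4 bp away differed from it by 1.51 ± 0.19. Losses followed at 1496 and 1785 bp, at -0.91 ± 0.12 and -0.72 ± 0.28 in the authors' deposited table, with -0.35 ± 0.34 at 1581 bp between them not called. The site without a bounded estimate lay at 1491 bp.

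Among regions at genes of chromatin, cell division and RNA, the one 2062 bp from EP300, which encodes a histone acetyltransferase and coactivator, had the narrowest spread (chr22:41087514-41090530). Its 2 gains were the first sites, at 0.20 ± 0.06 and 0.33 ± 0.09, 69 bp apart, in the authors' deposited table. All 4 losses lay from 256 to 326 bp, at -0.22 ± 0.05, -0.17 ± 0.06, -0.14 ± 0.05 and -0.26 ± 0.07 in the authors' deposited table, and the 3 sites not called stood between -0.07 and 0.00. Wild-type constructs near EP300 were called higher than scrambled at 6 of 9 sites, with the highest at 0.57 ± 0.07 at 300 bp in the authors' deposited table, and lower at 69 bp, at -0.23 ± 0.08. None of the EP300 calls held with Bonferroni adjustment.

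The region 299 bp from MCPH1, which encodes microcephalin of the DNA damage response, had 7 of 8 mutants called in the authors' deposited table (chr8:6648807-6650052). After losses of -0.37 ± 0.15 and -1.57 ± 0.11 at 9 and 29 bp came 4 gains in a row, from 33 to 151 bp, in the authors' deposited table. The gains stood at 0.87 ± 0.20, 0.73 ± 0.12, 0.51 ± 0.16 and 2.57 ± 0.23, the last 13.0-fold, and a loss of -0.95 ± 0.17 followed at 444 bp, in the authors' deposited table. This was the longest run of gains among the 22 regions. Against scrambled, the MCPH1 wild-type constructs at 0, 9, 29, 57, 117 and 151 bp stood at 1.33 ± 0.06, 3.04 ± 0.34, 2.16 ± 0.28, 0.53 ± 0.15, 3.43 ± 0.55 and 0.70 ± 0.19 per the authors' deposited table.

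Near INCENP, a gene of the chromosomal passenger complex of cell division, 8 of 9 sites fell within 84 bp of each other, 561 to 645 bp past the first (chr11:62077494-62081549, 42462 bp from the gene). Among those 8, losses came first, at 562 and 597 bp, at -0.65 ± 0.12 and -0.67 ± 0.15 in the authors' deposited table. Gains came last, at 628 and 645 bp, at 0.53 ± 0.09 and 1.57 ± 0.30, or 1.70- and 4.79-fold, in the authors' deposited table. The sites between at 588, 616 and 624 bp were not called and stood between -0.02 and 0.15 in the authors' deposited table, and the first site of the region was called higher at 0.30 ± 0.11.

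The region 448 bp from the nuclear pore gene NUP85 had the lowest share of calls, equal to that near HNRNPR, with 4 of 11 mutants called in the authors' deposited table (chr17:75204248-75205231). All calls beyond 11 bp lay in the last 71 bp, at -0.48 ± 0.16, 0.51 ± 0.17 and -2.97 ± 0.53 per the authors' deposited table. The last site was 19.4-fold lower, while its neighbour 24 bp away stood at 0.15 ± 0.15 per the authors' deposited table, not a call.

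The region 1865 bp from HNRNPR, the gene of a nuclear RNA-binding protein, had 3 gains and 1 loss, the loss at -0.17 ± 0.07 at 2 bp and the smallest gain at 0.34 ± 0.11 at 37 bp, per the authors' deposited table (chr1:23346149-23349256). The larger gains lay 29 bp apart, at 278 and 307 bp, at 1.09 ± 0.11 and 1.12 ± 0.13, or 2.98- and 3.06-fold, in the authors' deposited table. On either side, at 267 and 309 bp, the estimates were 0.08 ± 0.09 and 0.19 ± 0.13 in the authors' deposited table, not called, and the difference over the 2 bp from 307 to 309 bp was 0.93 ± 0.19 (adjusted p = 3.46e-06). The wild-type constructs of the larger gains near HNRNPR differed in direction, at -0.80 ± 0.11 at 278 bp and 0.52 ± 0.09 at 307 bp against scrambled in the authors' deposited table. Wild-type constructs for the adjacent bases at 266 and 267 bp were also called in opposite directions, at -0.31 ± 0.08 and 0.21 ± 0.08 per the authors' deposited table (adjusted p of the difference = 7.19e-06).

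CTIF encodes a translation initiation factor that works with the nuclear cap-binding complex, and its region had 1 gain of 0.46 ± 0.05, or 1.58-fold, at 279 bp per the authors' deposited table (chr18:48659841-48660464). The 3 losses at CTIF were small, at -0.22 ± 0.07, -0.17 ± 0.06 and -0.17 ± 0.05 per the authors' deposited table. The zinc finger gene ZNF528 held a region with 3 gains of 0.28 ± 0.07, 0.45 ± 0.10 and 0.47 ± 0.19 and 1 loss of -0.21 ± 0.09 in the authors' deposited table (chr19:52406898-52408230). Its gains at 2 and 196 bp each lay 2 bp past a site that was not called, and both pairs differed by the Wald test, by 0.49 ± 0.18 and 0.62 ± 0.22.

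Among regions at genes of transport, membrane and extracellular matrix, the one 2344 bp from SLC6A19, a neutral amino acid transporter gene, gave the most precise values (chr5:1196596-1199251). Its first 5 sites, over 745 bp, had only positive estimates, 3 of them called, at 1.02 ± 0.16, 0.42 ± 0.13 and 0.46 ± 0.07 per the authors' deposited table. The last 7 sites, from 1558 to 1925 bp, had errors of 0.02 to 0.03 in the authors' deposited table and 6 calls, which alternated in direction from 1626 to 1792 bp. In order those calls stood at -0.11, -0.24, 0.24, -0.10, 0.23 and 0.08 per the authors' deposited table, none beyond 1.27-fold. The wild-type constructs of those last SLC6A19 sites lay between -0.17 ± 0.02 and 0.26 ± 0.03 against scrambled in the authors' deposited table.

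The region 734 bp from CHMP4B, which encodes a subunit of the ESCRT-III membrane scission complex, had 13 mutants, of which 4 were called higher, 3 lower and 6 not, by the authors' deposited table (chr20:33806305-33810614). No called site there had a called neighbour of the same direction. Estimates stayed between -0.43 and 0.50 in the authors' deposited table, so the gains and losses near CHMP4B were small and of like size. At 989 and 1011 bp, 22 bp apart, the mutants stood at -0.43 ± 0.11 and 0.47 ± 0.11 per the authors' deposited table. The wild-type constructs there stood at 0.34 ± 0.09 and -1.02 ± 0.09 against scrambled in the authors' deposited table.

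EXOC2 encodes a subunit of the exocyst, which tethers secretory vesicles, and its region held calls of both directions over 278 bp (chr6:537146-537522). The calls in order were -0.53 ± 0.14, 1.13 ± 0.19, 0.33 ± 0.10, -0.76 ± 0.20 and 0.27 ± 0.10 in the authors' deposited table. ADAMTS2, the gene of a procollagen-processing protease, held the shortest of the 22 regions, with 7 of 8 mutants called in the authors' deposited table (chr5:179124778-179125119). Its first 5 sites, within 73 bp, alternated strictly, at 0.25 ± 0.06, -0.33 ± 0.05, 0.35 ± 0.05, -0.37 ± 0.07 and 0.19 ± 0.04 per the authors' deposited table. The largest effect at ADAMTS2 came at 181 bp, -0.92 ± 0.15 or 2.52-fold lower per the authors' deposited table. Its wild-type constructs ran from -0.22 ± 0.05 to 0.82 ± 0.12 in the authors' deposited table, the highest at 19 bp, where the mutant was called lower.

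The region 9275 bp from DIO3, which encodes a deiodinase that inactivates thyroid hormone, held, among opposite neighbours within 50 bp, the pair with the widest gap, 3.76 ± 0.86, at 162 and 169 bp (chr14:101550224-101552220). The 12.8-fold gain at 169 bp had an error of 0.83 in the authors' deposited table, and no wild-type row was held for it. The last 2 sites were both called lower, at -0.27 ± 0.06 and -0.31 ± 0.07 in the authors' deposited table. In the region inside CHLSN, a gene of a secreted protein called cholesin, the first 2 sites were called lower at -0.47 ± 0.16 and -0.89 ± 0.10 per the authors' deposited table (chr7:1006309-1006805). The middle sites at CHLSN included a gain of 0.57 ± 0.13 at 145 bp, and losses of -0.60 ± 0.11 and -0.66 ± 0.14 at 337 and 386 bp came before a gain of 0.52 ± 0.08 at 420 bp, in the authors' deposited table.

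NWD1 encodes a NACHT and WD repeat protein, and the region across one of its ends had the most mutants, 14, of which 4 were called higher, 5 lower and 5 not, by the authors' deposited table (chr19:16717675-16719978). The largest gain stood at 0.66 ± 0.09, or 1.93-fold, at 735 bp in the authors' deposited table. Losses at 932, 950 and 1045 bp, at -0.76 ± 0.09, -0.35 ± 0.08 and -0.22 ± 0.07, lay in a row but for 1 uncalled site in the authors' deposited table. Gains at 1157, 1168 and 1243 bp then stood at 0.33 ± 0.10, 0.50 ± 0.11 and 0.21 ± 0.06 per the authors' deposited table, a run of 3 over 86 bp. At 1268 bp, 25 bp on, the lowest value of the NWD1 region followed, -0.98 ± 0.20 in the authors' deposited table.

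Inside TDRD9, which encodes a helicase of the germline piRNA pathway, 10 sites fell into groups far apart (chr14:103965608-103970606). The 4 sites of the first 467 bp had only negative estimates, 2 of them called, at -0.69 ± 0.22 and -0.76 ± 0.13 per the authors' deposited table. The 5 sites from 3190 to 3397 bp had only positive estimates, 2 of them called, at 0.56 ± 0.21 and 1.54 ± 0.33, and the last site was called lower at -0.46 ± 0.08, in the authors' deposited table. The wild-type construct at 467 bp stood at 1.15 ± 0.10 and that at 3261 bp at -1.84 ± 0.31 against scrambled in the authors' deposited table.

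The region inside DIP2C, of the disco-interacting protein family, had its gains on one side and its losses on the other (chr10:505128-506101). Gains at the sites from 0 to 163 bp stood at 0.55 ± 0.11, 0.42 ± 0.07, 0.33 ± 0.07, 0.16 ± 0.06 and 0.38 ± 0.06 per the authors' deposited table, with 1 site among them not called. The adjacent losses at 198 and 199 bp followed, and the last 2 sites were at -0.05 ± 0.05 and -0.04 ± 0.06, not called, in the authors' deposited table. KIAA1671 had the highest median of the 22 regions, with 5 gains of 0.33 to 0.81 in the authors' deposited table (chr22:24999228-24999953). Between its gains lay losses of -0.57 ± 0.12 at 35 bp and -1.46 ± 0.14 at 129 bp, the latter 4.30-fold lower per the authors' deposited table.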

How the data were processed

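Cells were transduced with the lentiMPRA library and RNA and gDNA were extracted 48 hours later, per the labels' protocols. The authors deposited 2 tables, 1 of mutant over wild-type (1025 constructs) and 1 of wild-type over scrambled sequence (358). The submitters' processing notes list Bowtie2 and hg38 but not what each was used for. Filters, barcode numbers, construct length and scrambled sequences were not given in the sources used here. Per the file headers the estimates come from a logit model, so they were read as natural log odds ratios. The authors also deposited each construct's z value, a score. The p-value and q-value were deposited by the authors. Recomputed, p equalled a normal two-sided p from z, and q its Benjamini-Hochberg adjustment over each table. The direction was read from the table names, and the standard error is the estimate over z.

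Regions come from the construct names, with 1 added to each start. They were named from 19989 protein-coding genes of GRCh38.p14, without chromosome Y. None overlapped a window of the RefSeq promoter set used, whose window size and gene coverage are not given here. That count does not show that no region touches a promoter. The NWD1 region, for one, ended at 16719978, past the gene end at 16719847. Neighbouring sites were compared with a Wald test, which was run on simulated data. The simulated noise was drawn from the authors' standard errors, independently for each mutant. It therefore could not show how the test behaves with error beyond the model or shared between mutants. Estimates beyond 10 in size were left out of differences and spreads, so the 2 sites beside such a mutant count as neighbours. Computation used Python 3.11.15, NumPy 2.4.6, pandas 2.3.3 and SciPy 1.17.1. The members, tests and alternatives were chosen with earlier results of these data known. The named mutants are the highest and lowest called of each region and the 10 closest neighbours within 50 bp called in opposite directions, with a tie for the last place also given, with wild-type calls given mostly as counts and ranges. The test of wild-type neighbours was added to the planned one. Other sites were named after their values were seen.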

Additional observations from a re-analysis of the deposited data

How the results depend on the processing

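No paired analysis was possible because the deposited tables combine the replicates, and for the same reason no replicate could be left out. Against 129 called mutants as reported, Bonferroni adjustment gave 75 and z scaled by its robust SD (3.92) gave 1. With 6 or more rows taken as densely tested 197 of 325 were called, and with 10 or more 65 of 112. Substitutions only, or standard errors under 0.5, each gave 126. Of the 68 wild-type calls, Bonferroni left 38 and scaled z (robust SD 4.12) left 2, at MCPH1 and IL3RA. Regions with calls in both directions numbered 22 as reported, 13 with Bonferroni, 16 with calls of at least 1.5-fold, and 0 with scaled z, where 1 mutant was called in all. The 116 neighbouring pairs that differed became 67 with Bonferroni over the pairs, 125 with part of the smaller squared error taken as shared, and 0 with errors multiplied by 3.92, by the same Wald test (18 at an unadjusted p under 0.05). The share of called neighbours going the same way, 48.1%, was 45.2% within 50 bp, 48.4% within double the distance, 50.3% with uncalled neighbours included, and 44.9 to 51% leaving out 1 region at a time. Of single called mutants, Bonferroni ended 54 calls and scaled z 128. Depth is unknown, and constructs with a large standard error could show large effects only.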

Other observations

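Some rows of a table were named for the same site. Among wild-type constructs 3 such pairs were found over all regions, and each differed by more than 2 standard errors, with differences of 0.62 to 2.58 in the natural log of odds in the authors' deposited table. Whether both rows of such a pair hold the same wild-type sequence is not stated. Among mutants 14 pairs of different mutations at the same site were found, and 11 differed by more than 2 standard errors, with a median difference of 0.93 in the authors' deposited table. Neighbouring mutants up to 10 bp apart in densely tested regions differed by a median of 0.49.

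Some wild-type rows had no mutant of the same name in the mutant table, 4 of them at NRG1 and 1 at MCPH1. The MCPH1 row, at 117 bp, stood at 3.43 ± 0.55 against scrambled, or 30.8-fold, in the authors' deposited table, the highest of the 102 wild-type rows of densely tested regions with a bounded estimate. At NRG1 they included one at 1.36 ± 0.33, called higher, whose site lay 22 bp past the first mutant site, in the authors' deposited table.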
